A study of Mus musculus with 35 samples.

Results

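The genes described here are 40 enzymes and carriers that activate fatty acids, pass them through the carnitine system and break them down by beta-oxidation in mitochondria or peroxisomes. They were taken by name from a fixed list, chosen with earlier results of these data known. All 40 were found among the 54119 genes of the files. Their RNA was measured in 35 libraries of astrocyte-enriched cells from male C57BL/6JRj mice, obtained by bead sorting for ACSA2, which is the product of Atp1b2 on the astrocyte surface. From an age of 8 to 9 weeks the mice ate either SC, the standard chow, or HFHS, rich in fat and sugar (58%), for 4 months, and each replicate pooled 2 animals. Hypothalamus gave 6 SC and 5 HFHS replicates, hippocampus 5 and 7, and cortex 6 and 6. Hypothalamus and hippocampus cells were sorted on MS columns and cortex cells on LS columns with larger reagent volumes, per the labels' protocols, so column and region cannot be told apart in any comparison with cortex. The design allows HFHS to be compared with SC within a region, and 1 region with another on the same diet. The labels do not say whether replicates of different regions came from the same animals.

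Fatty acids enter oxidation only after acyl-CoA synthetases have joined them to coenzyme A. Long chains then cross the mitochondrial membranes as carnitine esters, through Cpt1, the carrier Slc25a20 and Cpt2, and each turn of the mitochondrial spiral runs through an acyl-CoA dehydrogenase, a hydratase, a hydroxyacyl-CoA dehydrogenase and a thiolase. Peroxisomes shorten very long and branched chains with their own oxidases, bifunctional enzymes and thiolases. In brain, beta-oxidation is known mainly from astrocytes and much less from neurons.

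Estimated reads per library ranged from 47578560 to 65982495. The cortex libraries SC 6 and HFHS 6 stood apart, with a mean transcript length of 1034 to 1191 bases against 1533 to 1801 in the other cortex libraries and a mitochondrial share of 8.04% to 10.9% against 2.45% to 7.89%. Hypothalamus SC 6 had a mean transcript length of 1469 bases. The median summed level of 17 astrocyte markers was 18000 TPM (a level scaled for transcript length and library size) in cortex on SC (range 11054 to 25534), 5245 TPM in hypothalamus (4032 to 6509) and 3034 TPM in hippocampus (1890 to 10602). For 10 oligodendrocyte markers the medians were 29687, 75634 and 69021 TPM, and for 8 ependymal markers 195, 5826 and 1580.3 TPM, in the same order. Astrocytes are the labelled cell type, and no marker of that list was at 0 in every library of any group. Atp1b2, the gene of the sorted antigen, had 459.5 ± 223 TPM (SD, n = 6) in cortex on SC, 266 ± 64.1 TPM (n = 6) in hypothalamus and 151 ± 92.8 TPM (n = 5) in hippocampus, with a lowest value of 93.0 TPM in cortex SC 6. In these sorted bulk samples, fewer cells of a type and less RNA per cell cannot be told apart.

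Activating enzymes were among the most abundant members. Over all 35 libraries the highest mean levels belonged to Acsbg1, a long-chain acyl-CoA synthetase known from astrocytes, with 386 TPM, and to Acsl3, a synthetase of the endoplasmic reticulum and lipid droplets, with 348 TPM. Acsl6, the brain-enriched synthetase known for docosahexaenoic acid, followed at 256 TPM. Cortex carried the rank of Acsbg1. In hypothalamus on SC its mean of 148 TPM was below those of Etfa (248 TPM) and Acsl3 (235 TPM), and in hippocampus on SC its 163 TPM was below the 290.2 TPM of Hadhb. Acsl1, the form of fat-burning tissues, had 30.8 TPM, Acsl5 had 5.71 TPM, and Acsl4, which prefers arachidonic acid, had 3.13 TPM.

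Members of the carnitine step were present at 29.3 to 89.9 TPM. The highest of them was Crot, the carnitine transferase of peroxisomes, with 89.9 TPM, followed by Slc25a20 with 43.7 TPM and Crat, which handles acetyl groups, with 35.2 TPM. Cpt1a, the regulated entry enzyme of the outer mitochondrial membrane, had 31.9 TPM, Cpt2 of the inner membrane 29.4 TPM, and Cpt1c, a brain form of the endoplasmic reticulum with little transferase activity, 29.3 TPM. Among the acyl-CoA dehydrogenases, Acadvl for very long chains had 163 TPM, Acadl for long chains 135 TPM, Acadm for medium chains 90.0 TPM and Acads for short chains 13.97 TPM. In cortex on SC the order of the first pair was reversed, with 191 ± 52.7 TPM of Acadl and 155 ± 52.2 TPM of Acadvl (SD, n = 6). Acadsb, the short branched-chain enzyme, had 72.7 TPM, Acad9, also an assembly factor of respiratory complex I, 31.1 TPM, Acad11 15.5 TPM and Acad10 2.73 TPM.

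The electron transfer flavoprotein, which takes electrons from acyl-CoA dehydrogenases, had 219.7 TPM for its subunit Etfa and 259 TPM for Etfb, and its oxidoreductase Etfdh had 55.3 TPM. Hadhb, the thiolase subunit of the mitochondrial trifunctional protein, was the third of all members with 312 TPM. The other mitochondrial enzymes of hydration and thiolysis ran from Acaa2, the medium-chain thiolase, with 183 TPM, through Hsd17b10 (144 TPM), Echs1 (138 TPM), Hadh (81.1 TPM) and Acat1 (69.1 TPM) to Hadha, the other trifunctional subunit, with 37.3 TPM. The auxiliary enzymes of unsaturated fatty acids had 199.8 TPM (Eci1), 115 TPM (Eci2) and 27.3 TPM (Decr1). In peroxisomes, the thiolase Acaa1a led with 179.9 TPM and the bifunctional enzyme Hsd17b4 followed with 81.7 TPM. Decr2 had 21.9 TPM, Acox3 12.1 TPM, Ehhadh 4.69 TPM, Acox2 4.14 TPM and Acaa1b 0.541 TPM. Acaa1a and Acaa1b are near-identical neighbours on chromosome 9, so the split of counts between them is uncertain.

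**Figure D1:**
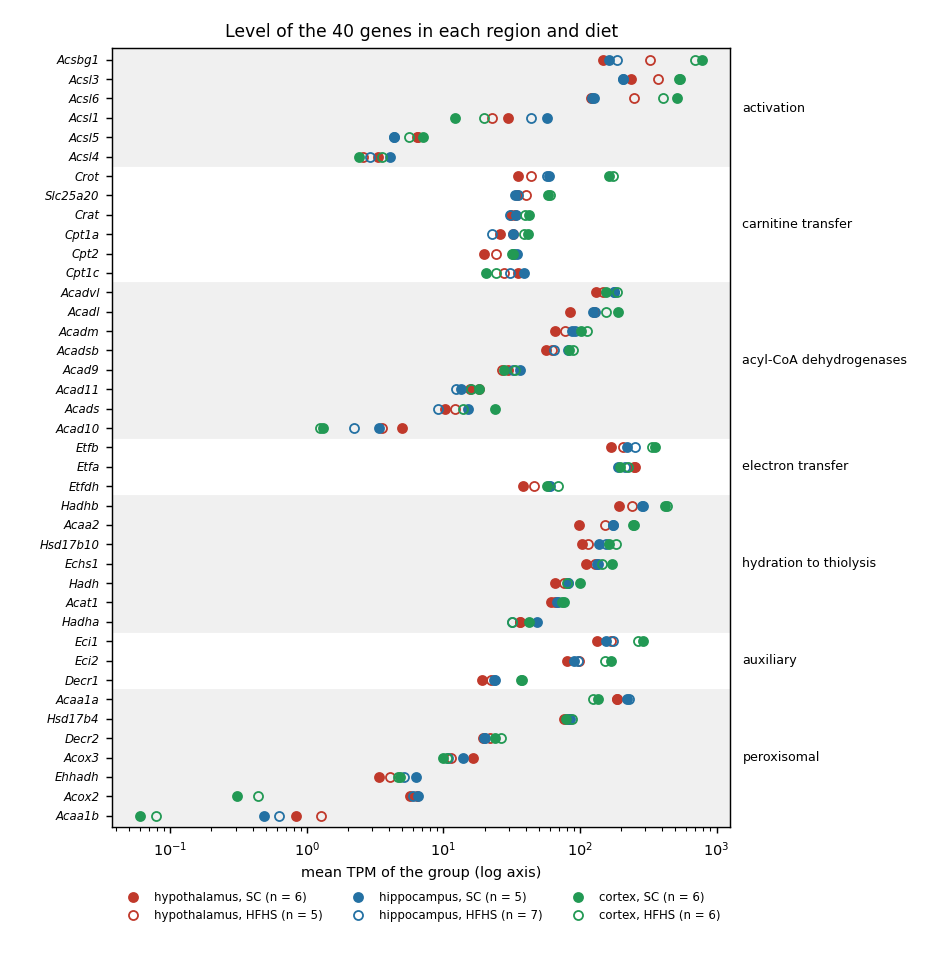
Mean TPM of each of the 40 members in the 6 groups, ordered by role, on a logarithmic axis, with region by colour, filled points for SC and open points for HFHS. Acsbg1 lies highest in both cortex groups, and Acaa1b, with a mean of 0.541 TPM over all libraries, lies lowest.

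Hadha and Hadhb lie head to head on chromosome 5 of GRCm38, Hadha on the minus and Hadhb on the plus strand, and 85 bases separate the annotated gene bodies. That stretch, chr5:30155163-30155247 on the plus strand, is shown because it lies between the genes of both trifunctional subunits. It comes from the RefSeq promoter window of Hadhb (GRCm38.p6), has a GC content of 69.4%, and capitals mark the GC box GGGCGG. The window of Hadha ends inside the stretch, at 30155230.
Hadha-Hadhb intergenic stretch: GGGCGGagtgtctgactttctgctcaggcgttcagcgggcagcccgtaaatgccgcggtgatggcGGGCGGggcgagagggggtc
The levels of the pair nonetheless differed. The ratio of Hadhb to Hadha TPM had a median of 4.98 in hypothalamus on SC (range 4.27 to 7.10), 5.35 in hippocampus on SC (4.02 to 7.97) and 9.87 in cortex on SC (7.75 to 15.7). On HFHS the medians were 7.02 (5.42 to 7.86), 9.85 (4.38 to 14.9) and 14.5 (8.97 to 34.5). The ranges of hypothalamus and cortex on SC did not overlap. In cortex the lowest Hadha value on each diet came from library 6, which had the shorter transcripts. Part of the Hadha level came from transcripts annotated as not coding. Hadha-205, the coding transcript of 4017 bases, held 34.7% ± 2.23 of Hadha TPM in hypothalamus on SC (SD, n = 6), 34.9% ± 2.12 (n = 5) in hippocampus and 33.6% ± 5.82 (n = 6) in cortex. Hadha-201, a processed transcript of 2552 bases, held 54.4% ± 4.27, 57.8% ± 2.31 and 57.1% ± 7.09. These shares did not differ between the regions by more than their spread.

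RefSeq promoter windows of 300 bases, from 250 before to 50 after the start, were found for 34 of the 40 members. Both strands were searched for letter strings that regulators of oxidation are known to bind. The element TCAAGGTCA of the estrogen-related receptors was in the window of 1 member (2.94%), against 0.466% of all genes with a window. That member was Acsl6, where the element lies on the minus strand 167 bases before the start. The stretch shown, chr11:54303647-54303675, holds the element with its flanks, and capitals mark the element on the plus strand.
Acsl6 start region: gcctccaaccTGACCTTGAgcattcttat
The PPAR element, AGGTCA repeated after 1 free base, was in 0 of the 34, against 0.0481% of all genes, which says only that these letters are not in these windows. The NRF1 core, GCGCA followed by TGCGC, was in 2 (5.88%, Acad10 and Etfdh) against 1.07%, CCAAT in 19 (55.9%) against 41.1%, and GGGCGG in 26 (76.5%) against 38.2%. These matches are descriptions of letters and not of binding.

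Hypothalamus and cortex on SC differed across most of the pathway. In hypothalamus 30 of the 40 members were lower than in cortex and 2 were higher by edgeR's quasi-likelihood test with Benjamini-Hochberg adjustment over 21574 genes, against 18.3% of all genes lower and 17.7% higher. The median log2 fold change of the members was -1.09, and that of all genes 0.06. All 7 enzymes of mitochondrial hydration and thiolysis were lower, as were all 3 auxiliary enzymes, 7 of 8 dehydrogenases, 5 of 6 carnitine genes, 3 of 6 activating enzymes, 2 of 3 electron transfer genes and 3 of 7 peroxisomal genes. The peroxisomal median was -0.00. The 8 members that passed in neither direction were Acsl1, Acsl4, Acsl5, Cpt1c, Etfa, Acox3, Acaa1a and Acaa1b.

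Among these, Acsbg1 had the most negative log2 fold change. In hypothalamus on SC it ran from 82.9 TPM through a median of 157 to 203 TPM, and in cortex from 159 through 835 to 1262 TPM. Only the lowest cortex library, SC 6, fell within the hypothalamus range. The log2 fold change was -2.81 ± 0.59 (SE, adjusted p = 0.000341 by edgeR). Acsl6 had 94.4, 112 and 175 TPM as lowest, median and highest in hypothalamus against 103, 543 and 836 TPM in cortex, where SC 6 was again the lowest. Its log2 fold change was -2.49 ± 0.54 (adjusted p = 0.000438 by edgeR). Acsl3 also fell, by 1.70 ± 0.31 on the log2 scale, with 235 ± 44.8 TPM in hypothalamus and 528 ± 190.0 TPM in cortex (SD, n = 6 each).

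Crot showed the same direction without overlap. Its hypothalamus libraries had 31.8 to 43.1 TPM with a median of 34.6, and its cortex libraries 51.3 to 275 TPM with a median of 168. The log2 fold change was -2.73 ± 0.33 (adjusted p = 8.74e-08 by edgeR). Cpt1a had 12.8, 27.6 and 33.6 TPM as lowest, median and highest in hypothalamus and 6.01, 45.5 and 60.9 TPM in cortex, so that cortex held both the lowest and the highest library. Its log2 fold change was -1.11 ± 0.35 (adjusted p = 0.0127), and 0.032 with the astrocyte marker level as a covariate. Cpt1c went the other way in value, with 19.7, 33.1 and 47.8 TPM in hypothalamus and 4.40, 23.5 and 27.1 TPM in cortex, and did not pass (0.35 ± 0.19, adjusted p = 0.150). The 2 isoforms of the entry step, which differ in site and activity, thus gave opposite signs here, and only Cpt1a passed. Scaled by library size alone, Cpt1c passed as higher. Their difference was not tested.

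Along the spiral, Acadl had 75.1, 83.97 and 92.5 TPM as lowest, median and highest in hypothalamus and 96.2, 196 and 259 TPM in cortex. The groups did not overlap, and the log2 fold change was -1.75 ± 0.21 (adjusted p = 8.17e-08 by edgeR). Acadvl had 115, 124 and 155 TPM against 56.7, 166 and 212 TPM, with overlap through cortex SC 1 and SC 6 (-0.84 ± 0.16, adjusted p = 0.000108). Acaa2 had 80.0 to 113 TPM with a median of 100.1 in hypothalamus and 168 to 346 TPM with a median of 241 in cortex, again without overlap. Its log2 fold change was -1.93 ± 0.36 (adjusted p = 8.39e-05). Hadhb was lower by 1.63 ± 0.23 on the log2 scale and Hadha by 0.72 ± 0.23 (adjusted p = 0.0124). The mean TPM of some called members was close in both regions, such as Hadha with 36.4 and 42.2 TPM, Acad9 with 29.6 and 27.6 TPM and Hsd17b4 with 76.0 and 79.2 TPM. Cortex SC 6, with the shorter transcripts, was the lowest cortex library of these genes and lowered their cortex means. It had 8.28 TPM of Acad9 (others 27.8 to 38.2) and 20.1 TPM of Hsd17b4 (others 84.02 to 101).

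The higher members were Acox2 and Acad10. Acox2, the peroxisomal oxidase of branched chains and bile acid intermediates, had 3.59, 5.39 and 8.40 TPM as lowest, median and highest in hypothalamus and 0.0895, 0.337 and 0.452 TPM in cortex. No libraries overlapped, the cortex values rested on 15 to 47 estimated counts, and the log2 fold change was 3.89 ± 0.58 (adjusted p = 3.29e-06 by edgeR). Acad10, a dehydrogenase of less settled substrate, had 3.68, 4.91 and 6.49 TPM against 0.178, 1.44 and 1.95 TPM (1.47 ± 0.31, adjusted p = 0.000399). In TPM, 6 members were below every cortex library in every hypothalamus library (Crot, Acadl, Acaa2, Decr1, Eci1 and Eci2), and 3 were above (Acad10, Acox2 and Acaa1b). Of all genes tested, 2.75% were below and 16.1% above by that criterion.

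**Figure D2:**
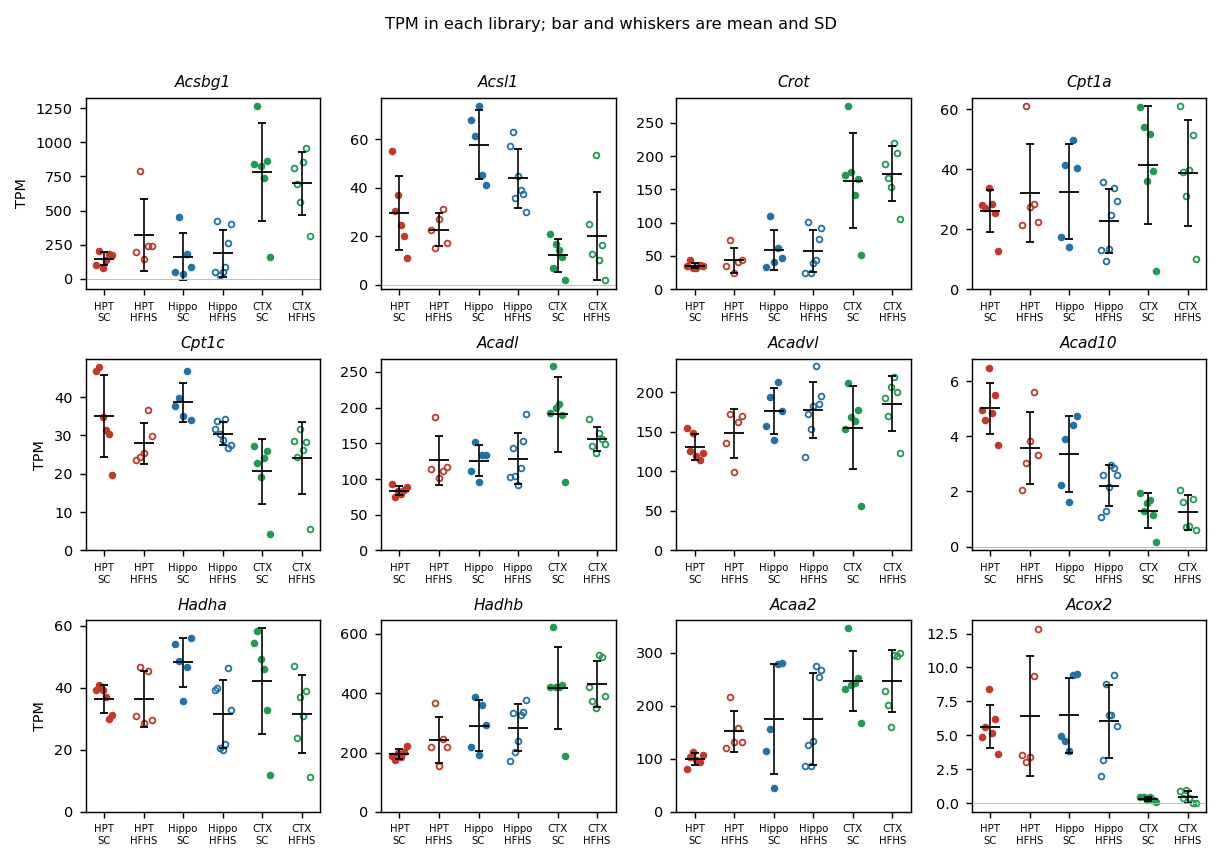
TPM of 12 members in each of the 35 libraries on linear axes, grouped by region (HPT hypothalamus, Hippo hippocampus, CTX cortex) and diet, with filled points for SC, open points for HFHS, and bars and whiskers for mean and SD. Acox2 lies at or below 0.97 TPM in every cortex library, and the mean levels of Crot and Acsbg1 are highest in cortex.

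Cell type markers differed between these groups as well. Of the 17 astrocyte markers, 14 were lower in hypothalamus than in cortex on SC, 4 of 10 oligodendrocyte markers were higher and 8 of 8 ependymal markers were higher. Of 8 oligodendrocyte precursor markers, 7 were higher and 1 lower. With the astrocyte marker level of each library (mean log2 CPM of the 17 genes) as a covariate, 12 members passed, 2 higher (Acad10 and Acox2) and 10 lower, against 17.2% of all genes in either direction. That level ran from 7.75 to 8.57 in hypothalamus and from 9.70 to 10.6 in cortex on SC. The groups did not overlap in it, so the fit extends slopes from within groups across a gap without libraries. When libraries were scaled by library size alone, a setting chosen after seeing the data, the median of all genes moved by 0.36 and the members split into 5 higher (Cpt1c, Acsl1, Acox2, Acox3 and Acad10) and 23 lower, against 27.0% of all genes higher and 9.42% lower.

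Hippocampus and cortex on SC differed in the same direction in fewer members. In hippocampus 20 members were lower and 4 higher, against 15.3% and 15.4% of all genes, and the median was -0.71 with 0.04 over all genes. The lower ones included all 3 auxiliary enzymes and 6 of the 7 of mitochondrial hydration and thiolysis, the exception being Hadha (-0.17 ± 0.24, adjusted p = 0.611 by edgeR). Acsbg1 had 51.5, 455, 38.9, 184 and 83.6 TPM in the 5 hippocampus libraries, which differed by more than 10 times among themselves, and a log2 fold change of -2.63 ± 0.63 (adjusted p = 0.00199). Acsl6 had 54.3, 291, 20.9, 153 and 115 TPM and a log2 fold change of -2.39 ± 0.57 (adjusted p = 0.00201). Hippocampus SC 2 was the highest and SC 3 the lowest library of both genes. Crot followed them with 33.8, 110.3, 41.1, 62.1 and 47.1 TPM (-1.91 ± 0.34).

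Among the higher ones, Acsl1 had 67.9, 61.3, 73.5, 45.1 and 41.0 TPM in hippocampus and ran from 1.85 through a median of 12.97 to 20.96 TPM in cortex. Every hippocampus library was above every cortex library, and the log2 fold change was 1.94 ± 0.41 (adjusted p = 0.000582 by edgeR). Acox2 had 4.96, 4.59, 3.88, 9.44 and 9.49 TPM, all above cortex (4.21 ± 0.60, adjusted p = 6.47e-06). Cpt1c had 37.7, 39.7, 34.99, 46.8 and 34.0 TPM, all above the highest cortex value of 27.1 TPM (0.52 ± 0.20, adjusted p = 0.0445). Acad10 was higher by 0.99 ± 0.32 (adjusted p = 0.0191), with values of 2.22, 3.89, 1.61, 4.40 and 4.75 TPM that overlapped cortex. Cpt1a, with 17.4, 41.3, 13.98, 49.7 and 40.4 TPM, did not pass (-0.67 ± 0.37, adjusted p = 0.168).

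Of the astrocyte markers, 16 of 17 were lower in hippocampus than in cortex on SC, and 7 of 10 oligodendrocyte and 7 of 8 ependymal markers were higher. With the astrocyte marker level as a covariate, 2 members passed, Acad10 and Acox2, both higher, against 3.04% of all genes in either direction. Acsbg1, Acsl6, Acaa2 and Acad11 changed sign in that fit, at values near 0. The marker level ran from 6.61 to 9.17 in hippocampus and from 9.70 to 10.6 in cortex, again without overlap.

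**Figure D3:**
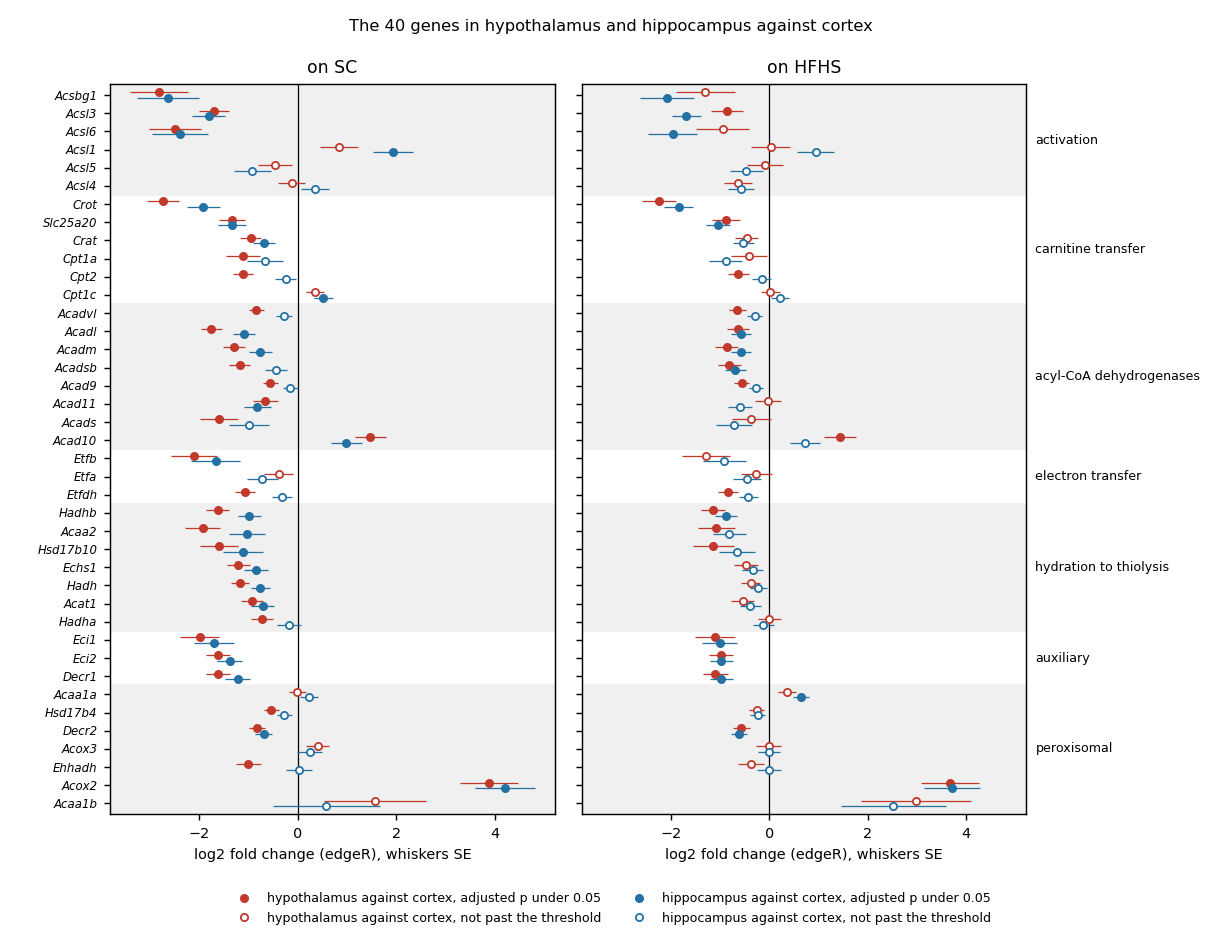
Log2 fold changes of the 40 members in hypothalamus and in hippocampus against cortex, with SC and HFHS in separate panels, whiskers for SE, and filled symbols for members that passed. On SC most points lie below 0, and Acox2 lies highest at 3.89 and 4.21.

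Hypothalamus and hippocampus on SC differed in 6 members, all lower in hypothalamus, against 4.13% of all genes lower and 5.86% higher. The median was -0.38 against 0.02 over all genes. Ehhadh, a bifunctional enzyme of peroxisomes, ran from 1.63 through 3.39 to 4.99 TPM in hypothalamus and had 6.52, 6.67, 4.92, 6.24 and 7.04 TPM in hippocampus, where SC 3 alone overlapped (-1.04 ± 0.26, adjusted p = 0.0107 by edgeR). Cpt2 ran from 15.3 through 20.8 to 22.6 TPM in hypothalamus and had 27.4, 31.1, 18.2, 46.0 and 50.4 TPM in hippocampus (-0.87 ± 0.21, adjusted p = 0.00675). Hippocampus SC 3 was again the lowest library of its group.

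Etfdh ran from 31.8 through 40.5 to 42.4 TPM in hypothalamus and had 46.1, 66.9, 35.2, 84.2 and 71.5 TPM in hippocampus (-0.76 ± 0.21, adjusted p = 0.0160 by edgeR). Acadsb ran from 41.6 through 56.2 to 69.6 TPM and had 65.2, 97.4, 50.4, 108 and 90.6 TPM (-0.75 ± 0.23, adjusted p = 0.0308). Both sets overlapped in the lowest hippocampus libraries. Acadl, with 112, 152, 96.0, 133 and 134 TPM in hippocampus, did not overlap (-0.67 ± 0.22, adjusted p = 0.0434), and Acadvl had 157, 194, 140.1, 212 and 177 TPM (-0.56 ± 0.17, adjusted p = 0.0271). The count was 2 without hippocampus SC 4 (7.5% of all genes) and 2 when scaled by library size alone (9.58%), where the median of all genes moved by 0.15. It was 14 with voom (24.2%) and 13 without the 3 libraries of shorter transcripts, hypothalamus SC 6, cortex SC 6 and cortex HFHS 6 (14.7%). With the astrocyte marker level as a covariate 11 members passed, all lower, against 11.4% of all genes in either direction. Of the 17 astrocyte markers, 2 were higher and 1 was lower in hypothalamus, and 3 of 10 oligodendrocyte markers were lower and 6 of 8 ependymal markers higher.

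The regions on HFHS differed in fewer members. Hypothalamus was lower than cortex in 17 members and higher in 2, against 9.21% and 14.6% of all genes, with a median of -0.56 and 0.01 over all genes. The 17 lower members were 56.7% of the 30 found on SC, and all 17 were among those 30. Acox2 (3.67 ± 0.59) and Acad10 (1.43 ± 0.33) were higher on both diets. Crot was lower by 2.24 ± 0.35 on the log2 scale (adjusted p = 8.01e-06 by edgeR), with 35.03, 74.4, 23.9, 40.2 and 44.3 TPM in hypothalamus and 106 to 220.3 TPM in cortex, without overlap. Acsbg1 did not pass (-1.30 ± 0.60, adjusted p = 0.116), and its hypothalamus values were 198, 787, 146, 241 and 243 TPM. Acsl6 did not pass (-0.95 ± 0.54, adjusted p = 0.219). Leaving out 1 library moved the count of 19 between 12 and 25, with 12 without hypothalamus HFHS 3 or without cortex HFHS 6 and 25 without hypothalamus HFHS 2. The shares of all genes called in those fits are not given here, so this range cannot be read as particular to the members. Scaled by library size alone, 4 members were higher (Acox2, Acad10, Acaa1a and Acaa1b) and 6 lower, against 18.4% and 5.59% of all genes, with a shift of 0.21 in the median of all genes. With the astrocyte covariate 9 passed (2 higher, 7 lower) against 17.7% of all genes. Here 3 of 17 astrocyte markers were lower, and 2 of 10 oligodendrocyte, 8 of 8 ependymal and 7 of 8 oligodendrocyte precursor markers were higher.

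Hippocampus on HFHS was lower than cortex in 13 members and higher in 2, against 10.8% and 13.4% of all genes, with a median of -0.55. The lower set shared 12 members with SC, which is 60.0% of the 20 on SC and 92.3% of the 13 on HFHS. Crot (-1.84 ± 0.30), Acsbg1 (-2.08 ± 0.54) and Acsl6 (-1.97 ± 0.50) were lower on HFHS as well. Acox2 (3.71 ± 0.57) and Acaa1a (0.65 ± 0.17, adjusted p = 0.00523 by edgeR) were higher. Acsl1, with 29.8 to 63.1 TPM in hippocampus and 1.80 to 53.5 TPM in cortex, did not pass on HFHS (0.94 ± 0.37, adjusted p = 0.0621). Of the astrocyte markers, 16 of 17 were lower, and 6 of 10 oligodendrocyte and 8 of 8 ependymal markers were higher. With the astrocyte covariate 2 passed, both higher, against 3.74% of all genes. The covariate did not overlap between hippocampus (6.55 to 9.10) and cortex (9.36 to 10.2) on HFHS. Between hypothalamus and hippocampus on HFHS 0 members passed by edgeR, against 4.24% of all genes higher and 2.18% lower, and the median was -0.08. DESeq2 called 0 members and 10.1% of all genes, and voom 3 members and 14.9% of all genes. With the covariate 3 passed, all lower, against 3.94% of all genes. Whether the diet changed these region differences is given with the interaction contrasts.

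Members also varied with the cell type markers among libraries of the same region and diet. In a model of all 6 groups, 15 members rose with the astrocyte marker level and 0 fell, against 5.38% and 0.417% of all genes. The median slope was 0.25 log2 units per log2 unit of the marker level, and -0.02 over all genes. Acsbg1 had a slope of 1.31 ± 0.07 (adjusted p = 1.38e-15 by edgeR), and Acsl6 had 1.19 ± 0.08. The 17 astrocyte markers themselves had slopes from 0.24 to 1.38, with a median of 1.13. Crot had 0.69 ± 0.06, Acsl3 0.64 ± 0.06 and Cpt1a 0.58 ± 0.12. Thus activation and carnitine transfer gave the 5 steepest slopes. By role, 3 of 6 activating enzymes rose, 4 of 6 carnitine genes, 3 of 8 dehydrogenases, 1 of 3 electron transfer genes, 2 of 7 of hydration and thiolysis, 2 of 3 auxiliary enzymes and 0 of 7 peroxisomal genes. The lower slopes among those that passed ran from 0.26 (Etfdh) to 0.47 (Slc25a20 and Acaa2). With replicate number as a block in the model, 6 members rose and 0 fell, and 699 genes rose and 32 fell of 21574. No member is on a marker list, and 16 of the 17 astrocyte markers rose with their own mean.

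With the oligodendrocyte marker level, 2 members rose and 9 fell, against 6.71% and 4.31% of all genes. The median slope was -0.28, and -0.07 over all genes. Acsl1 rose with 0.86 ± 0.14 (adjusted p = 3.44e-05 by edgeR) and Acaa1a with 0.28 ± 0.08 (adjusted p = 0.0128). On SC, Acsl1 was also among the 4 members higher in hippocampus than in cortex, where 7 of 10 oligodendrocyte markers were higher. The steepest falls were Acaa2 (-0.73 ± 0.15), Etfa (-0.51 ± 0.14), Slc25a20 (-0.49 ± 0.12) and Acadm (-0.44 ± 0.09). Hadhb, Etfdh, Acat1, Decr2 and Acadl fell less, by 0.30 to 0.43. With replicate number as a block in the model, 0 members passed, and 171 genes rose and 1 fell of 21574. The median slope of the members was then -0.15. Both marker levels come from the same libraries, so the slopes are not independent of each other. How much of a member's RNA came from each cell type was not tested.

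**Figure D4:**
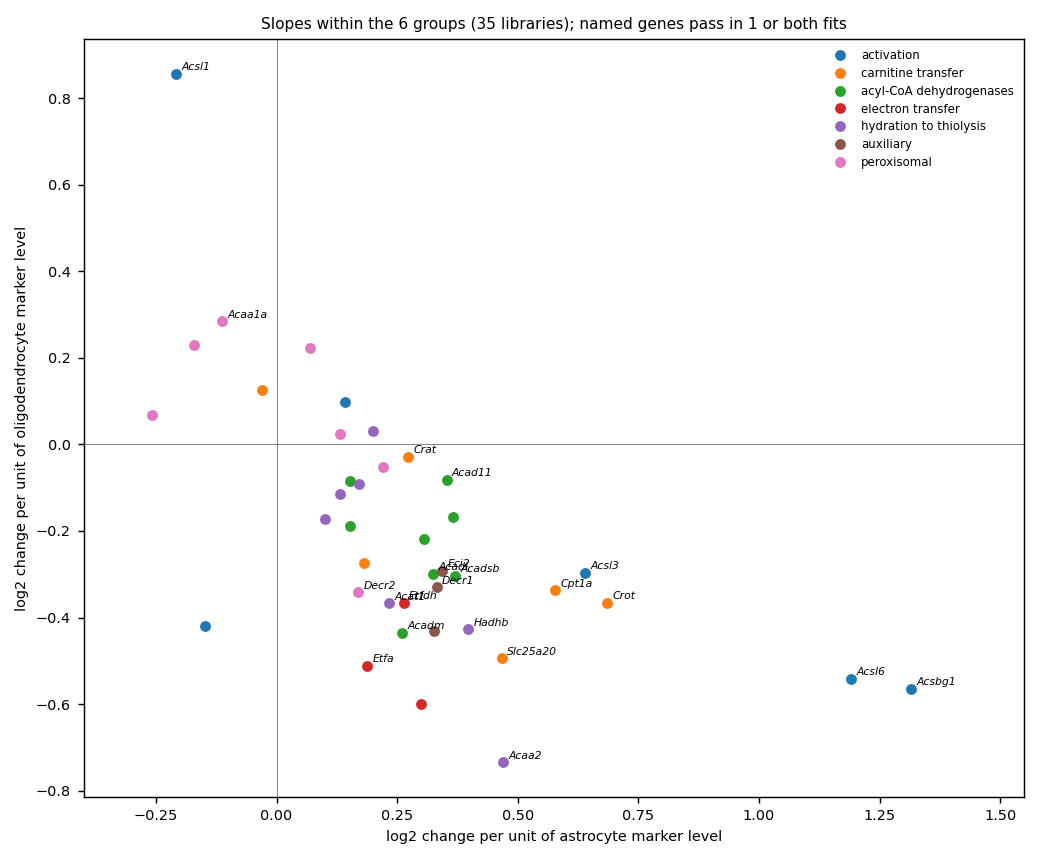
Slope of each of the 40 members on the astrocyte marker level against its slope on the oligodendrocyte marker level, both in log2 units per log2 unit, coloured by role, with names beside the members that passed in at least 1 fit. Acsbg1 (1.31) and Acsl6 (1.19) lie farthest along the astrocyte axis, and Acsl1 (0.86) lies highest on the oligodendrocyte axis.

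The diet comparison gave no member past the threshold in any region. In hypothalamus all 40 members passed the filter on low counts, and 0 were called by edgeR among 19272 genes, of which 0.0% were called. At an unadjusted p under 0.05 there were 12 members and 1639 genes (8.5%), and DESeq2 called 2 members and 0.451% of all genes. The median log2 fold change was 0.34 against -0.01 over all genes, and 34 of the 40 values were positive. The astrocyte score was 8.85 ± 0.77 on HFHS (SD, n = 5) and 8.18 ± 0.34 on SC (n = 6), with 10.2 in HFHS 2. The log2 fold changes of all 17 astrocyte markers were positive, with a median of 0.84. Of these markers 0 were called and 10 had an unadjusted p under 0.05 by edgeR. The score of 8 oligodendrocyte precursor markers was 4.91 ± 0.64 on HFHS and 6.48 ± 0.54 on SC, with 0 of the 8 called and 7 at an unadjusted p under 0.05. The part of either cell type in the member values was not tested beyond the astrocyte covariate. The median became 0.18 without HFHS 2 and 0.09 with the astrocyte marker level as a covariate.

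Acaa2 and Acadl had the smallest p. Acaa2 had 121, 217, 132, 159 and 132 TPM on HFHS, all above the SC range of 80.0 to 113 TPM, and a log2 fold change of 0.74 ± 0.18 (adjusted p = 0.472 by edgeR and 0.0406 by DESeq2). Acadl had 114, 187, 101, 112 and 117 TPM, all above the SC range of 75.1 to 92.5 TPM (0.74 ± 0.19, adjusted p = 0.472 by edgeR and 0.0497 by DESeq2). These were the 2 members of 40 whose HFHS libraries all lay above the SC libraries in hypothalamus, against 0.114% of all genes tested. Without HFHS 2 the log2 fold changes were 0.55 for Acaa2 and 0.53 for Acadl. Etfdh had 38.9, 51.9, 35.7, 50.4 and 52.8 TPM on HFHS, of which 3 lay above the SC maximum of 42.4 TPM (0.39 ± 0.13, adjusted p = 0.482). For Acsbg1, HFHS 2 with 787 TPM was the highest and the others had 146 to 243 TPM against 82.9 to 203 TPM on SC (1.24 ± 0.42, adjusted p = 0.482), and the value was 0.54 without HFHS 2.

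In hippocampus 0 of 40 members were called among 19036 genes (0.0% called), with 3 members and 984 genes (5.17%) at an unadjusted p under 0.05, and 0 members by DESeq2, which called 0.0788% of all genes. The median was 0.06. Hsd17b10, a short-chain hydroxyacyl-CoA dehydrogenase that also serves mitochondrial tRNA processing, had 136, 160.0 and 168 TPM as lowest, median and highest on HFHS, and 145, 148, 136, 149 and 111 TPM on SC (0.26 ± 0.11, adjusted p = 0.876 by edgeR). Acads had 4.00, 9.71 and 15.6 TPM on HFHS and 18.4, 13.9, 9.88, 14.3 and 19.6 TPM on SC (-0.67 ± 0.30, adjusted p = 0.876). Hadha had 19.9, 32.7 and 46.5 TPM on HFHS and 54.3, 48.8, 35.9, 46.6 and 56.0 TPM on SC (-0.54 ± 0.25, adjusted p = 0.876). For Acads and Hadha, 4 of the 7 HFHS libraries lay below every SC library.

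In cortex 39 members passed the filter on low counts, all but Acaa1b, and 0 were called among 17844 genes (0.0% called), with 2 members and 1652 genes (9.26%) at an unadjusted p under 0.05 and 0 members by DESeq2, which called 2.82% of all genes. The median was -0.11. Hadha had 12.0, 47.8 and 58.4 TPM as lowest, median and highest on SC and 11.3, 33.9 and 46.9 TPM on HFHS (-0.54 ± 0.25, adjusted p = 0.522 by edgeR). Acsl4 had 0.607, 2.49 and 3.58 TPM on SC and 1.12, 4.03 and 4.28 TPM on HFHS, where 5 of 6 libraries were above the SC maximum (0.50 ± 0.23, adjusted p = 0.539). Acads had 2.42, 25.2 and 43.1 TPM on SC and 3.195, 13.7 and 23.4 TPM on HFHS (-0.89 ± 0.43, adjusted p = 0.566). The lowest value of each of these genes on each diet came from library 6, which had the shorter transcripts. Without both libraries of shorter transcripts 0 members passed, while 207 genes were called higher and 308 lower of 17998. The adjusted p values by edgeR were then 0.135 for Hadha, 0.126 for Acsl4 and 0.179 for Acads.

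**Figure D5:**
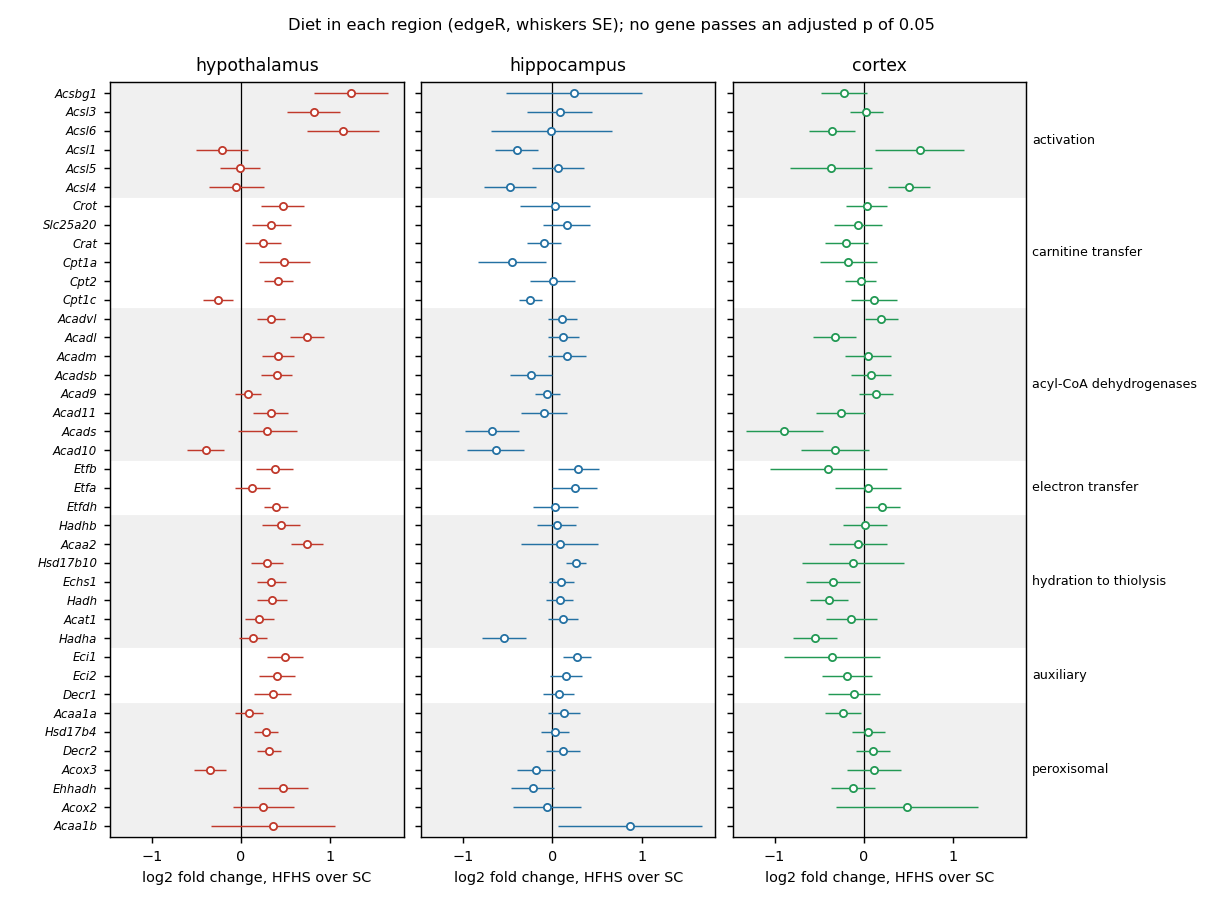
Log2 fold changes of HFHS against SC for the 40 members in each region (39 in cortex), ordered by role, with standard errors. The hypothalamus values lie mostly above 0 with a median of 0.34, and no member passed the threshold.

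Contrasts of the diet effects in pairs of regions were also fitted. Between hypothalamus and cortex 0 members were called by edgeR (0.0% of 21574 genes), with 6 members and 11.6% of all genes at an unadjusted p under 0.05. Between hippocampus and cortex there were 0 (0.0%), with 2 members and 9.3% at an unadjusted p, and between hypothalamus and hippocampus 0 (0.0%), with 1 member and 2.01%. DESeq2 called 1, 0 and 0 members, in the same order, and 0.654%, 0.107% and 0.0185% of all genes. Acadl had the smallest p, with a diet effect 1.11 ± 0.30 log2 units higher in hypothalamus than in cortex (adjusted p = 0.186 by edgeR). It passed with DESeq2 (adjusted p = 0.0497), with voom (adjusted p = 0.0167) and without the 3 libraries of shorter transcripts (adjusted p = 0.0188). Without cortex HFHS 6 alone it passed too (adjusted p = 0.0334 by edgeR). With other scaling, without the filter or with counts rebuilt from TPM, 0 members and 0 genes passed. With the astrocyte marker level as a covariate 0 members passed, and 1 gene was higher and 1 lower of 21574. In this contrast 16 of the 17 astrocyte markers were positive, with 0 called. Their median was 1.19, against 0.49 for the members. In cortex itself Acadl had 96.2 to 259 TPM on SC and 136 to 184 TPM on HFHS. Hadh, the short-chain hydroxyacyl-CoA dehydrogenase, followed with 0.79 ± 0.26 (adjusted p = 0.247), and passed with voom (adjusted p = 0.0468) and without those 3 libraries (adjusted p = 0.0409).

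Transcript shares of Acsl6 differed between the regions in value. Acsl6-207, a coding transcript of 2730 bases, held 79.8% ± 1.76 of Acsl6 TPM in hypothalamus on SC (SD, n = 6), 70.9% ± 7.15 (n = 5) in hippocampus and 86.4% in cortex. Acsl6-209, a coding transcript of 2594 bases, held 2.17% ± 1.75, 10.9% ± 6.67 and 0.0732% ± 0.179, and it was at 0 in every cortex library on HFHS. These shares were not tested. In Acadsb, whose coding share was 20.7% over all libraries, the transcript Acadsb-207 with a retained intron held 47.9% to 54.5% of the gene's TPM across the groups. The gene level of Acadsb therefore stands largely for transcripts annotated as not coding.

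A further 44 genes of fatty acid uptake, thioesters, ketone bodies, odd and branched chains, peroxisome entry and regulation were listed beside the enzymes. In hypothalamus against cortex on SC 21 were lower and 3 higher (18.3% and 17.7% of all genes), with a median of -0.65. In hippocampus 19 were lower and 3 higher (15.3% and 15.4% of all genes), with a median of -0.58. The counts for hypothalamus by list were 6 lower of 10 for peroxisome entry, 5 of 6 for odd and branched chains, 3 of 4 for ketone bodies, 3 of 8 for uptake and binding, 2 of 6 for thioesterases and 2 of 10 for regulators. Ppara, the nuclear receptor that controls oxidation genes, was lower in hypothalamus (-2.60 ± 0.40, adjusted p = 4.14e-06 by edgeR) and in hippocampus (-1.85 ± 0.41, adjusted p = 0.00101), with 2.54 ± 0.615, 3.76 ± 2.22 and 9.63 ± 4.90 TPM in hypothalamus, hippocampus and cortex. Pccb, a subunit of propionyl-CoA carboxylase, was lower in hypothalamus (-1.19 ± 0.18), and Fabp7, a fatty acid binding protein of glia, in hippocampus (-3.26 ± 0.62). Between hypothalamus and hippocampus on SC 5 were lower and 1 higher (4.13% and 5.86% of all genes), led by Acad8, of valine breakdown (-1.36 ± 0.26), and Pcca, the partner of Pccb (-0.95 ± 0.23).

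On HFHS the 44 genes gave 8 lower and 2 higher in hypothalamus against cortex (9.21% and 14.6% of all genes), with Pccb (-0.88 ± 0.19) at the smallest p. In hippocampus against cortex 14 were lower and 1 higher (10.8% and 13.4% of all genes), led by the fatty acid transporter Slc27a1 (-1.37 ± 0.29) and the peroxisomal transporter Abcd2 (-2.22 ± 0.52). Between hypothalamus and hippocampus 2 were lower, Acad8 (-0.85 ± 0.25) among them, and 0 were higher (2.18% and 4.24% of all genes). The diet comparisons gave 0 of 44 in each region by edgeR, with 9, 0 and 2 at an unadjusted p under 0.05 in hypothalamus, hippocampus and cortex. Abcd2 (1.17 ± 0.09) and Ppargc1a, a coactivator of mitochondrial genes (0.66 ± 0.09), rose with the astrocyte marker level, and Acot7, a brain acyl-CoA thioesterase (0.80 ± 0.09), and the transporter Slc27a4 (0.76 ± 0.11) rose with the oligodendrocyte marker level.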

How the data were processed

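RNA of 35 libraries was analysed from 2 values per transcript. Estimated counts and TPM are the authors' deposited values; the submitters' processing notes name Salmon, FastQC and GRCm38, with versions and trimming not given in the sources used here. Among 140948 deposited transcripts, 139852 matched GENCODE mouse release 21; the others, 0.214% to 0.535% of a library's estimated counts, were left out. Estimated counts were summed per gene and rounded, and deposited TPM were summed per gene for levels, which compare genes per length. Salmon may divide reads between paralogs or overlapping genes, and the SMART-Seq v4 kit keeps no strand.

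Tests used edgeR 4.0.16 in R 4.3.3 (filterByExpr, TMM, robust quasi-likelihood, Benjamini-Hochberg over all genes, threshold 0.05). Diet was fitted within each region. Regions, interactions and marker slopes came from models of all 6 groups. Log2 fold changes are edgeR's, and SE is their size divided by the square root of F. Marker levels are mean log2 CPM with a prior count of 2. Alternatives were limma 3.58.1 (voom with sample weights), DESeq2 1.42.0, other scaling, no filter, counts rebuilt from TPM, a replicate block, a marker covariate and left-out libraries. The procedure was tested on simulated data. Since replicates are pools of 2 animals, p-values measure the spread between pools. Full values are given for the 3 members with the smallest p per diet comparison, the 4 called members with the largest change per SC region comparison, 1 per step of the pathway, and up to 2 related genes per comparison, of which 1 is not reported here; Acad10, Acsl3, Hadhb and other members named beyond that were chosen after their values were seen. The members and lists were chosen with earlier results of these data known. An astrocyte marker of the list is not used here.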

Additional observations from a re-analysis of the deposited data

Results flagged for a closer look

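In 30 of 240 pairs of group and member, 1 library lay far from the others of its group by Dixon's criterion, which chance meets in about 5% of groups. Most of them came from 3 libraries.

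Cortex SC 6, with the shortest mean transcript length, stood apart as the lowest library in 10 members. It had 151.9 TPM of Acsl3 (others 555 to 676), 4.399 of Cpt1c (19.2 to 27.1), 10.41 of Cpt2 (30.8 to 39.7), 8.278 of Acad9 (27.8 to 38.2), 2.572 of Acad11 (19.2 to 23.3), 18.92 of Etfdh (58.0 to 78.6), 1.036 of Ehhadh (4.45 to 6.49), 20.1 of Hsd17b4 (84.02 to 101), 51.25 of Acaa1a (138 to 168) and 9.837 of Decr2 (23.8 to 29.4). It stood apart as the highest in Etfb with 725.7 TPM, where the others had 211 to 387.

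Cortex HFHS 6, the other library of short transcripts, stood apart as the lowest in Acsl4 with 1.124 TPM (others 3.75 to 4.28), Cpt1c with 5.638 (24.3 to 31.8) and Crat with 13.91 (38.7 to 52.0). It stood apart as the highest in Etfb with 670.9 TPM (225 to 318), Hsd17b10 with 316.1 (123 to 184) and Eci1 with 481.9 (202 to 246).

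Hypothalamus HFHS 2, with the highest astrocyte score of its group, stood apart as the highest library in 9 members. It had 780.7 TPM of Acsl3 (others 195 to 323), 621.2 of Acsl6 (105 to 195), 786.7 of Acsbg1 (146 to 243), 61.03 of Cpt1a (21.5 to 28.3), 186.8 of Acadl (101 to 117), 291.5 of Etfb (176 to 192), 101.1 of Hadh (65.7 to 74.6), 254.2 of Eci1 (136 to 169) and 199.6 of Acaa1a (182 to 184.5).

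Single values stood apart in other libraries. They were Acsl3 in hippocampus SC 2 (383.8 TPM, others 119.9 to 196), Acsl4 in hypothalamus HFHS 3 (3.821, others 2.23 to 2.43), Etfa in cortex SC 2 (251.6, others 164 to 194) and Etfb in hypothalamus SC 6 (234.2, others 150.1 to 164.5).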

How the results depend on the processing

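Counts of called members moved with some settings. With the astrocyte marker level as a covariate they were 12, 2 and 11 for hypothalamus against cortex, hippocampus against cortex and hypothalamus against hippocampus on SC, and 9, 2 and 3 on HFHS. In that fit Cpt1a (0.032) and Acad11 (0.0545) in hypothalamus against cortex on SC, Acsl6 (0.13), Acsbg1 (0.0507), Acaa2 (0.081) and Acad11 (0.01845) in hippocampus against cortex on SC, and Acsl6 (0.12), Acadl (0.12), Acadsb (0.0729) and Acsbg1 (0.10) in hippocampus against cortex on HFHS changed sign. The cause was not tested. Hypothalamus against hippocampus on SC gave 14 with voom, 2 scaled by library size alone, 3 without the filter and 13 without the 3 libraries of short transcripts (hypothalamus SC 6, cortex SC 6 and HFHS 6). Without the filter 982 genes were higher and 559 lower of 35090. On HFHS hypothalamus against hippocampus gave 3 with voom, against 14.9% of all genes, and 2 without the 3 libraries of short transcripts. In that last fit 1337 genes were higher and 1080 lower of 21343. Hypothalamus against cortex on HFHS gave 29 with voom, where 4028 genes were higher and 3158 lower of 21574. Scaled by library size alone it gave 10, against 18.4% of all genes higher and 5.59% lower. The interaction of hypothalamus and cortex gave 1 with DESeq2 (0.654% of all genes), 2 with voom and 2 without the 3 libraries of short transcripts. Voom called 180 genes higher and 411 lower of 21574, and the fit without those libraries 226 and 249 of 21343. DESeq2 called 2 in the hypothalamus diet comparison (0.451% of all genes). The oligodendrocyte slope gave 18 with voom, where 2498 genes rose and 2368 fell of 21574.

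Same-numbered replicates were not treated as pairs, since the labels do not say that equal numbers mark shared animals. In no comparison did the deviations of every same-numbered pair correlate above 0.1. Their mean correlation was nonetheless above that of other pairs in each comparison. It was 0.0387 against -0.00688 between hypothalamus and cortex on HFHS, the lowest, and 0.256 against -0.0465 between SC and HFHS in cortex, the highest. What the numbers stand for was not tested. A replicate block gave 10 for hypothalamus against hippocampus on SC (1432 genes higher and 1090 lower of 21574) and 4 on HFHS (1553 and 1044). It gave 1 for the interaction of hypothalamus and cortex, Acadl, with 166 genes higher and 133 lower. For the astrocyte slope it gave 6 (699 genes rose and 32 fell) and for the oligodendrocyte slope 0 (171 rose and 1 fell).

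Leaving out 1 library gave 30 to 33, 19 to 27 and 2 to 8 on SC and 12 to 25, 12 to 21 and 0 to 1 on HFHS, in the order above, 11 to 16 and 9 to 16 for the slopes, 0 to 2 for the interaction of hypothalamus and cortex (2 without cortex HFHS 6), and 0 for diet and the other interactions. Values under all alternatives were compared for members called in a comparison and for the 3 with the smallest p in each diet comparison. Of these values, 5158 kept direction and call, 352 lost the call, 2 gained it with DESeq2 and 10 changed sign. Calls gained by other members appear only in the counts above. Shares of all genes are not given beside the counts with 1 library left out in this section. Members at few reads, such as Acaa1b and cortex Acox2, are limited by depth.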
